A study of Bos taurus with 88 samples.

Results

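TLR2 (ENSBTAG00000008008), TLR4 (ENSBTAG00000006240) and CD14 (ENSBTAG00000015032) are 3 sensors of bacterial surface molecules, and they were taken by these Ensembl identifiers from the 24616 genes counted in the blood of newborn calves. RNAseq was carried out on whole blood of 22 calves at 0, 48, 72 and 168 h after birth, with 1 library per calf and age and 88 libraries in all. The 8 Holstein (H) dairy calves were removed from the cow soon after birth and fed colostrum of their own dam, the first feed by oesophageal tube at 5% of body weight. From day 5 the H calves were penned as a group on milk replacer and concentrate, so their 168 h libraries followed a change of feed. The beef calves were 7 progeny of Charolais × Limousin cows (CL) and 7 progeny of Limousin × Friesian cows (LF), which stayed with the dam and suckled naturally, and both groups had Aberdeen Angus and Charolais sires. Dairy and beef calves were kept on different farms, so breed, farm and feeding cannot be told apart where H calves are compared with beef calves. Blood at 0 h was drawn before the first colostrum in H calves and before any suckling in beef calves, whose births were watched for that purpose.

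TLR4 is the receptor through which cells detect lipopolysaccharide, the lipid of the outer membrane of Gram-negative bacteria. CD14, a membrane-anchored protein that is also shed in soluble form, binds lipopolysaccharide and passes it to TLR4 and its partner MD-2. TLR2 works in pairs with TLR1 or TLR6 and detects bacterial lipoproteins, which are prominent in Gram-positive bacteria, and CD14 can deliver these ligands too. In blood, monocytes and neutrophils carry these receptors, and CD14 is the classical surface marker of monocytes. Whole blood was measured in bulk, so fewer cells of a type and less RNA per cell cannot be told apart in any difference below. Markers of blood cells and the other genes of the Toll-like receptor pathway could not be matched to the identifiers counted, and the labelled tissue was therefore not checked against its markers.

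Libraries held between 10023822 and 39304404 reads on genes, with a median of 22595526.5. Levels are given as CPM, in which a gene's counts are divided by those of all genes of the library, scaled between libraries by TMM, and 3 counts, the least taken as detected, stood for 0.0763 to 0.299 CPM. TLR2 had 1071 to 10090 counts per library, TLR4 856 to 9848 and CD14 1151 to 23534, so that counting error was at most 3.42% of a value. The spread between calves was far larger, with a coefficient of variation within the 12 groups of 15.3 to 45.3% for TLR2, 19.8 to 50.4% for TLR4 and 28.6 to 67.2% for CD14. In 5 libraries over 50% of reads were not counted on a gene, being unmapped, mapped to several places, outside genes or ambiguous. They were LF calf 1 at 0 h, H calf 3 at 0 h and H calf 6 at 0, 48 and 72 h. In H calf 6 at these ages, 41.0 to 49.1% of reads mapped to several places and 8.69 to 13.5% lay outside genes. Leaving the 5 libraries out changed no call among the 72 tests of the 3 genes. Comparisons that hold none of the 5, such as all those within CL calves, could not change, so only the others were tested by this. The labels also number the RNA samples, and in 20 of the 22 calves the 4 numbers lay within a range of at most 4. The libraries of H calf 1 and H calf 3 at 168 h were numbered far outside the run of their calf, although they carried its tag. In its deviation from the group means, each of them was most like the library of its own calf at 72 h among the 8 H calves (r = 0.408 and 0.455), as held for 13 of the 20 other calves. Main fold changes and ratio changes that use H libraries at 168 h are given with and without these 2. Levels, ranges, counts of calves and correlations include them unless stated.

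TLR2, the lipoprotein receptor, was at its highest at 72 h in 17 of the 22 calves and at 48 h in the other 5, and at its lowest at 168 h in 13 calves and at 0 h in 9. In H calves, TLR2 ran from 122.4 to 237.6 CPM at 0 h (median 162.5), from 156.5 to 258.8 at 48 h (median 198.3), from 117.1 to 320.4 at 72 h (median 251.7) and from 114.4 to 223.3 at 168 h (median 132.7). In CL calves, it ran from 64.7 to 176.5 CPM at 0 h (median 103.6), from 76.8 to 190.9 at 48 h (median 125.6), from 95.6 to 231.5 at 72 h (median 188.0) and from 70.6 to 153.9 at 168 h (median 103.1). In LF calves, it ran from 86.4 to 269.1 CPM at 0 h (median 119.1), from 109.97 to 282.1 at 48 h (median 225.1), from 129.7 to 418.0 at 72 h (median 216.1) and from 57.6 to 136.2 at 168 h (median 106.8). The ages overlapped in each breed. The highest TLR2 value of all 88 libraries, that of LF calf 4 at 72 h, and the lowest, that of the same calf at 168 h, belonged to 1 animal.

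From 72 to 168 h TLR2 was lower at the later age in 22 of 22 calves, and in 20 of 20 without H calves 1 and 3. A gene was called differentially expressed (DEG) in edgeR's quasi-likelihood test when its Benjamini-Hochberg adjusted p was under 0.05 and its fold change at least 1.5. By that rule TLR2 was a DEG in 1 of 12 comparisons between ages within a breed, where it fell by 1.22 ± 0.25 (SE) on the log2 scale in LF calves from 72 to 168 h (adjusted p = 0.00601), a comparison in which 14% of 12738 genes were DEG. The group mean went from 232.8 ± 100.5 to 101.1 ± 24.3 CPM (SD, n = 7). This call held with each of the 7 calves left out in turn, with log2 fold changes from -1.33 to -0.92. In calf 4 TLR2 fell by 2.86 on the log2 scale, the most of the 7, and in calf 5 it fell by 0.34, the least.

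In CL calves the log2 fold change of TLR2 from 72 to 168 h was -0.74 ± 0.21 (adjusted p = 0.103), and only 2 of 12770 genes were DEG in that comparison, or 0.0157%. With the calf as a block TLR2 was a DEG there at -0.73 ± 0.08 (adjusted p = 0.00225), beside 5.72% of the genes, and it passed without calf 1 too (-0.78, adjusted p = 0.0464). All 7 CL calves showed a lower value at 168 h, by 0.35 to 0.94 on the log2 scale. In H calves the log2 fold change was -0.58 ± 0.21 (adjusted p = 0.0650), with 9.18% of 12541 genes DEG. Calf 5 of the H group was nearly level, at 117.1 CPM at 72 h and 117.0 at 168 h, and without it TLR2 passed as a DEG at -0.64 (adjusted p = 0.0232). With the calf as a block and all H calves the log2 fold change was -0.57 ± 0.12 (adjusted p = 0.0154). That passed the test but not the fold change threshold. TLR2 was a DEG there in 2 of 9 alternative settings, among them DESeq2 (-0.59, adjusted p = 0.0338). Without the 168 h libraries of H calves 1 and 3 the log2 fold change was -0.67 ± 0.22 (adjusted p = 0.0650), and with the calf as a block as well -0.53 ± 0.16 (adjusted p = 0.118).

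From 0 to 48 h TLR2 was higher at the later age in 18 of 22 calves. The log2 fold change was 0.67 ± 0.25 in LF calves (adjusted p = 0.0740, with 11.9% of 12794 genes DEG), 0.28 ± 0.22 in CL calves (adjusted p = 0.348, with 14.9% of 12852 genes DEG) and 0.27 ± 0.13 in H calves (adjusted p = 0.208, with 6.94% of 12508 genes DEG). None of these 3 was a DEG. With the calf as a block TLR2 was a DEG in LF calves at 0.72 ± 0.15 (adjusted p = 0.00796), beside 14.5% of the genes. It also passed in LF calves when calf 5 (0.71) or calf 6 (0.88) was left out, and calf 6 stood highest in its group at 0 h. Between 48 and 72 h the log2 fold changes were 0.40 ± 0.21 in CL, 0.19 ± 0.17 in H and 0.09 ± 0.26 in LF calves, none a DEG. Of all genes, 0.00782% of 12792 were DEG in CL, 0% of 12479 in H and 0% of 12781 in LF calves. In CL calves TLR2 was a DEG in 0 of 9 alternative settings, with log2 fold changes from 0.34 to 0.45 (adjusted p = 0.0173 to 0.615). TLR2 was higher at 72 h in 17 of 22 calves and in 7 of 7 CL calves.

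At 168 h versus 0 h TLR2 was not a DEG in any breed. The log2 fold change over this interval was -0.11 ± 0.17 in H, -0.05 ± 0.22 in CL and -0.46 ± 0.24 in LF calves (adjusted p = 0.624, 0.885 and 0.176), with 9 calves higher and 13 lower at 168 h. Without the 2 H libraries in question it was -0.20 ± 0.18 in H calves (adjusted p = 0.410). These were comparisons in which 20.7% of 12647, 15.5% of 12876 and 14.8% of 12773 genes were DEG. The comparisons over the 4 ages share libraries, so they are not independent of each other.

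**Figure D1:**
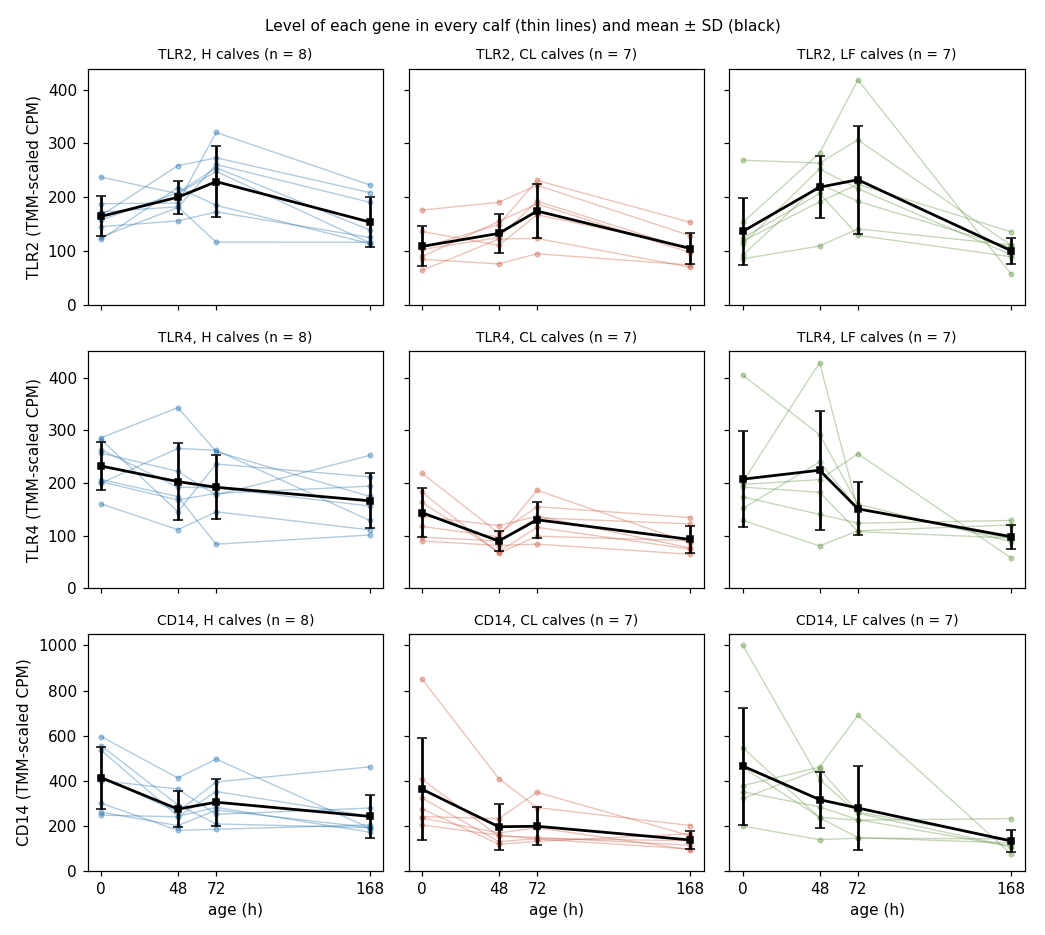
TMM-scaled CPM of each gene (rows) against age in hours (x axis) in H, CL and LF calves (columns), with a thin line per calf and the mean ± SD in black (n = 8, 7 and 7). TLR2 is highest at 48 or 72 h in all 22 calves, whereas TLR4 is highest at 0 h in 14 and CD14 in 16 of them.

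TLR4, the lipopolysaccharide receptor, was highest at 0 h in 14 of 22 calves, never highest at 168 h (0 calves), and lower at 168 h than at 0 h in 21. In H calves it ran from 160.2 to 286.1 CPM at 0 h (median 231.5), from 111.1 to 343.3 at 48 h (median 182.9), from 83.6 to 262.3 at 72 h (median 185.5) and from 101.03 to 252.4 at 168 h (median 165.3). In CL calves it ran from 89.9 to 218.4 CPM at 0 h (median 136.4), from 66.2 to 118.9 at 48 h (median 89.6), from 83.6 to 186.1 at 72 h (median 133.7) and from 64.4 to 134.2 at 168 h (median 85.9). In LF calves it ran from 128.97 to 404.9 CPM at 0 h (median 192.1), from 80.2 to 428.9 at 48 h (median 206.3), from 107.5 to 255.5 at 72 h (median 149.3) and from 57.3 to 128.7 at 168 h (median 95.1). The LF values at 168 h lay wholly below those at 0 h, but narrowly, with a highest value of 128.7 against a lowest of 128.97 CPM. The share of all genes that separate in this way was not counted. The widest group was LF at 48 h, where calf 2 stood 5.35 times above calf 5.

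TLR4 was a DEG in 4 of the 12 comparisons between ages. In LF calves it fell by 1.10 ± 0.23 on the log2 scale from 0 to 168 h (adjusted p = 0.00295), from a mean of 207.3 ± 91.1 to 97.6 ± 23.1 CPM (SD, n = 7), with 7 of 7 calves lower, where 14.8% of genes were DEG. In CL calves it fell by 0.63 ± 0.22 over the same interval (adjusted p = 0.0362), where 15.5% of genes were DEG, with 6 of 7 calves lower, and this call was lost without any 1 of calves 3, 4, 5 and 7 (adjusted p = 0.0704 to 0.118), as well as without libraries whose label ends in R (-0.56) and with the L number in the fit (-0.65). In H calves the log2 fold change was -0.50 ± 0.18 (adjusted p = 0.0338), where 20.7% of genes were DEG, with 8 of 8 calves lower, which passed the test but not the fold change of 1.5. The adjusted p rose over 0.05 without any 1 of calf 1 (0.0803), calf 2 (0.100), calf 4 (0.0668) and calf 5 (0.0597), and without calf 7 TLR4 passed both criteria at -0.59 (adjusted p = 0.0208). Without the 168 h libraries of calves 1 and 3 the log2 fold change was -0.58 ± 0.20 (adjusted p = 0.0375), still under the fold change of 1.5.

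In the single intervals TLR4 gave a DEG in CL calves from 0 to 48 h and in LF calves from 72 to 168 h. In CL calves it fell by 0.69 ± 0.20 on the log2 scale from 0 to 48 h (adjusted p = 0.0138), where 14.9% of genes were DEG, with 7 of 7 calves lower, a call that was lost without calf 3 or calf 4 (adjusted p = 0.0589 and 0.0585) and in the fit of all libraries that included the L number of the label (-0.60, adjusted p = 0.123). The CL values at 72 h were above those at 48 h in 7 of 7 calves, with a log2 fold change of 0.54 ± 0.18 that was not a DEG (adjusted p = 0.113), where 0.00782% of 12792 genes, a single gene, were DEG. From 72 to 168 h the log2 fold change in CL calves was -0.50 ± 0.20 (adjusted p = 0.155), with all 7 calves lower at the later age. In CL calves TLR4 was a DEG in 0 of 9 alternative settings over either of these 2 intervals. The adjusted p ran from 0.0108 to 0.496 for 48 to 72 h and from 0.0314 to 0.381 for 72 to 168 h.

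In LF calves the log2 fold change of TLR4 from 0 to 48 h was 0.12 ± 0.32 (adjusted p = 0.844), with 3 calves higher and 4 lower. From 48 to 72 h it was -0.58 ± 0.30 (adjusted p = 0.672), in a comparison where edgeR called 0% of 12781 genes, 8.32% had an unadjusted p under 0.05 and DESeq2 called 120 genes. From 72 to 168 h TLR4 fell by 0.64 ± 0.20 (adjusted p = 0.0330), where 14% of genes were DEG. That call was lost with the calf as a block (-0.60 ± 0.25, adjusted p = 0.101, beside 13.7% of the genes), in 3 other settings (adjusted p = 0.0541 to 0.190) and without any 1 of calves 1, 2, 4 and 6. Without calf 4, which fell by 2.15, the log2 fold change was -0.37. In H calves TLR4 was not a DEG in any single interval, with log2 fold changes of -0.21 ± 0.19, -0.08 ± 0.24 and -0.22 ± 0.23 in turn, the last being -0.30 ± 0.26 without the 2 libraries at 168 h. Of 12479 genes, 0% were DEG in H calves from 48 to 72 h by edgeR, while 6.31% had an unadjusted p under 0.05 and DESeq2 called 11.

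CD14, which hands lipopolysaccharide to TLR4, was highest at 0 h in 16 of 22 calves and lowest at 168 h in 14. In H calves it ran from 247.4 to 595.6 CPM at 0 h (median 407.4), from 179.7 to 412.3 at 48 h (median 252.0), from 184.6 to 495.8 at 72 h (median 275.7) and from 171.9 to 461.3 at 168 h (median 198.2). In CL calves it ran from 203.5 to 851.2 CPM at 0 h (median 275.8), from 118.0 to 409.6 at 48 h (median 158.8), from 131.2 to 348.6 at 72 h (median 148.7) and from 93.9 to 201.2 at 168 h (median 133.9). In LF calves it ran from 198.9 to 1000.2 CPM at 0 h (median 378.4), from 138.5 to 460.2 at 48 h (median 283.9), from 145.1 to 690.0 at 72 h (median 227.6) and from 74.5 to 231.8 at 168 h (median 123.7). The CL values at 168 h lay wholly below those at 0 h, but narrowly, with a highest value of 201.2 against a lowest of 203.5 CPM. The share of all genes that separate in this way was not counted. The highest value of each beef group at 0 h came from 1 calf, CL calf 2 and LF calf 6.

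CD14 was a DEG at 168 h versus 0 h in all 3 breeds. It fell by 1.83 ± 0.32 on the log2 scale in LF calves (adjusted p = 0.000725), by 1.40 ± 0.30 in CL calves (adjusted p = 0.00298) and by 0.79 ± 0.23 in H calves (adjusted p = 0.0114). DEG made up 14.8%, 15.5% and 20.7% of the genes in these 3 comparisons. The means went from 465.0 ± 259.8 to 132.4 ± 49.4 CPM in LF calves, from 362.3 ± 225.9 to 137.1 ± 39.3 in CL calves (SD, n = 7 each) and from 413.6 ± 137.3 to 241.7 ± 95.2 in H calves (SD, n = 8). The fall was seen in 7 of 7 LF, 7 of 7 CL and 7 of 8 H calves, the exception being H calf 3. Without the 168 h libraries of H calves 1 and 3, CD14 was a DEG in H calves at -0.97 ± 0.21 (adjusted p = 0.00287, beside 18.4% of the genes) and was lower in 20 of 20 calves over the breeds. None of these 3 calls was lost when any 1 calf was left out, nor in the 9 other settings that were tried over all comparisons. Of these settings, dropping the fold change threshold could not lose a call. Leaving out libraries with over 50% of reads not counted on a gene left the CL fit as it was.

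A lower level of CD14 was already present at 48 h in 20 of 22 calves, including 8 of 8 H and 7 of 7 CL calves. The log2 fold change from 0 to 48 h was -0.60 ± 0.21 in H (adjusted p = 0.0809), -0.89 ± 0.35 in CL (adjusted p = 0.0634) and -0.56 ± 0.33 in LF calves (adjusted p = 0.256), none a DEG by edgeR. DESeq2 called CD14 in H calves (-0.60, adjusted p = 0.0395, beside 8.84% of the genes) and in CL calves (-0.89, adjusted p = 0.0440, beside 15.5% of the genes). With the calf as a block CD14 was a DEG in CL calves at -0.85 ± 0.17 (adjusted p = 0.00326), beside 16.6% of the genes. It also passed in CL calves without calf 2 (-0.82, adjusted p = 0.00465), the calf with the highest values at 0 and 48 h. In H calves the block gave -0.58 ± 0.12 for CD14 (adjusted p = 0.00474), which passed the test but not the fold change threshold. In LF calves CD14 was a DEG in 0 of 9 alternative settings (adjusted p = 0.132 to 0.322). Between 48 and 72 h the log2 fold changes were 0.15 ± 0.21, 0.02 ± 0.30 and -0.18 ± 0.35 in H, CL and LF calves, with 12 calves higher and 10 lower.

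From 72 to 168 h CD14 fell by 1.09 ± 0.34 on the log2 scale in LF calves (adjusted p = 0.0300), the fourth of its 4 DEG calls between ages. This was its least stable call. It was lost with the calf as a block (-0.92 ± 0.36, adjusted p = 0.0857), without libraries whose label ends in R (-1.07) and without any 1 of LF calves 1, 2, 4 and 6, and without calf 4, in which CD14 fell by 3.21, the log2 fold change was -0.58 (adjusted p = 0.0879). In CL and H calves the values were -0.55 ± 0.25 and -0.35 ± 0.23 (adjusted p = 0.203 and 0.331), and without the 168 h libraries of H calves 1 and 3 that of H calves was -0.53 ± 0.21 (adjusted p = 0.118).

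**Figure D2:**
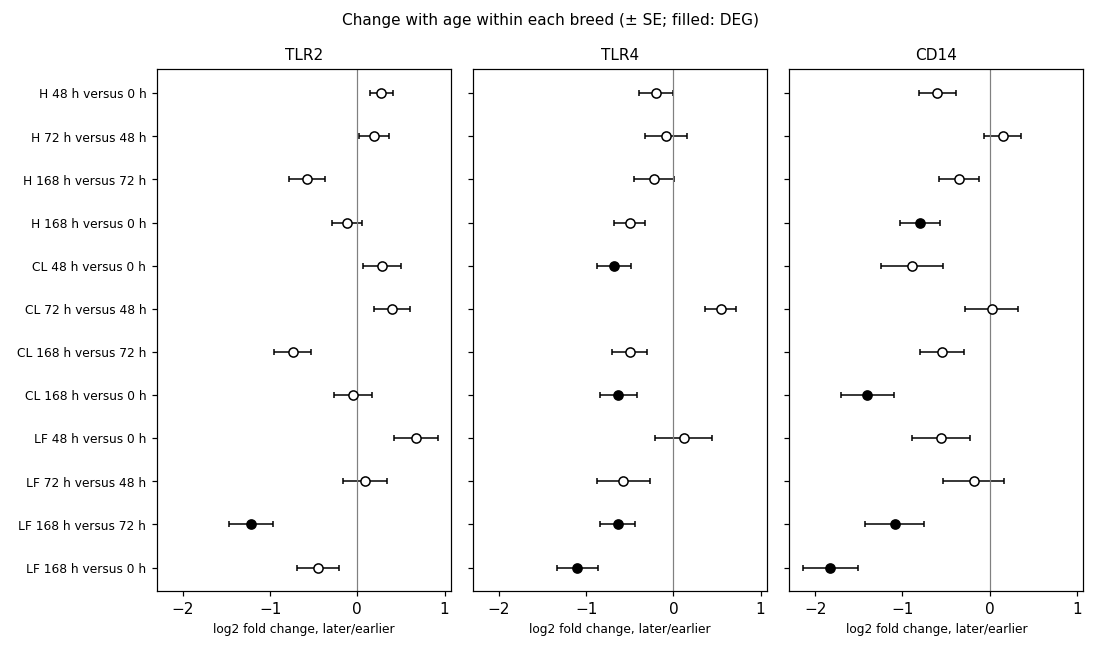
Log2 fold change between ages (x axis, later over earlier, ± SE from edgeR) for each gene (panels) and comparison within a breed (rows), with filled points for DEG. Of the 36 points 9 are filled, 1 for TLR2, 4 for TLR4 and 4 for CD14, and all 9 lie left of 0.

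The 3 genes together gave 9 DEG calls in 36 tests between ages, all of them falls, and 18 of the 36 had an unadjusted p under 0.05. Over the same 12 comparisons 0 to 20.7% of all genes were DEG (mean 8.99%) and 6.31 to 49.7% had an unadjusted p under 0.05 (mean 30.5%). Ordered by mean level over the 12 groups of breed and age, TLR2 was highest in LF calves at 72 h and lowest in LF calves at 168 h, TLR4 was highest in H calves at 0 h and lowest in CL calves at 48 h, and CD14 was highest in LF calves at 0 h and lowest in LF calves at 168 h. No 2 neighbours in any of these orders differed by more than the larger of their SDs (0 gaps for each gene).

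A ratio of 2 genes in the same library does not depend on how libraries are scaled, so the log2 ratios of TLR2 counts and of CD14 counts to TLR4 counts were compared between ages within calves. With 24 such tests, 9 passed an exact two-sided sign-flip permutation test after Benjamini-Hochberg adjustment, all at an adjusted p of 0.0417, and 7 of them concerned TLR2. From 0 to 48 h the TLR2 to TLR4 ratio rose by 0.94 ± 0.26 in CL calves (SD, n = 7; exact p = 0.0156), by 0.68 ± 0.34 in LF calves (SD, n = 7; exact p = 0.0156) and by 0.55 ± 0.30 in H calves (SD, n = 8; exact p = 0.00781). It rose in each of the 22 calves. The smallest p that 7 calves allow is 0.0156 and the smallest that 8 allow is 0.00781, so these 3 tests gave the smallest values they could. No single test at such a value could pass the adjustment over 24 tests by itself, so each of the 9 passes, for either ratio, rests on the others.

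At 168 h the TLR2 to TLR4 ratio was still above its value at 0 h, by 0.65 ± 0.21 in LF, 0.58 ± 0.30 in CL and 0.40 ± 0.30 in H calves (SD; exact permutation p = 0.0156 in each breed). The change was a rise in 7 of 7, 7 of 7 and 7 of 8 calves. Without H calves 1 and 3 the H value was 0.34 ± 0.33 (SD, n = 6; exact p = 0.0625, adjusted p = 0.125), with a rise in 5 of 6 calves, and 8 of the 24 tests passed. From 72 to 168 h the ratio fell by 0.53 ± 0.21 in LF calves, in 7 of 7 (exact p = 0.0156), while the changes of -0.37 ± 0.40 in H and -0.23 ± 0.36 in CL calves did not pass (adjusted exact p = 0.0721 and 0.199). The CD14 to TLR4 ratio passed in LF calves only among these tests, where it fell by 0.69 ± 0.27 from 0 to 168 h and by 0.35 ± 0.35 from 72 to 168 h, each in 7 of 7 calves (SD; exact p = 0.0156). In CL calves it changed from 0 to 168 h by -0.67 ± 0.51 (adjusted exact p = 0.0625) and in H calves by -0.25 ± 0.59 (adjusted exact p = 0.321), and the difference between breeds was not tested. Without H calves 1 and 3 the H changes from 72 to 168 h were -0.38 ± 0.47 for TLR2 to TLR4 and -0.12 ± 0.50 for CD14 to TLR4, and that of CD14 to TLR4 from 0 to 168 h was -0.28 ± 0.51 (SD, n = 6).

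When calves with a library whose label ends in R were left out, 4 to 7 calves remained per test and 0 of 24 passed after adjustment (smallest adjusted p = 0.107, exact). The smallest p that 4, 5 and 6 calves allow is 0.125, 0.0625 and 0.0312, so tests with 4 or 5 calves could not pass at all, and the loss says nothing of stability. The changes themselves were of like size. The TLR2 to TLR4 ratio rose from 0 to 48 h by 0.67 in H, 0.94 in CL and 0.68 in LF calves (exact p = 0.0625, 0.0312 and 0.0156 with n = 5, 6 and 7), and from 0 to 168 h by 0.40, 0.53 and 0.67. In LF calves it fell by 0.56 from 72 to 168 h, and the CD14 to TLR4 ratio fell by 0.39 over that interval and by 0.62 from 0 to 168 h.

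**Figure D3:**
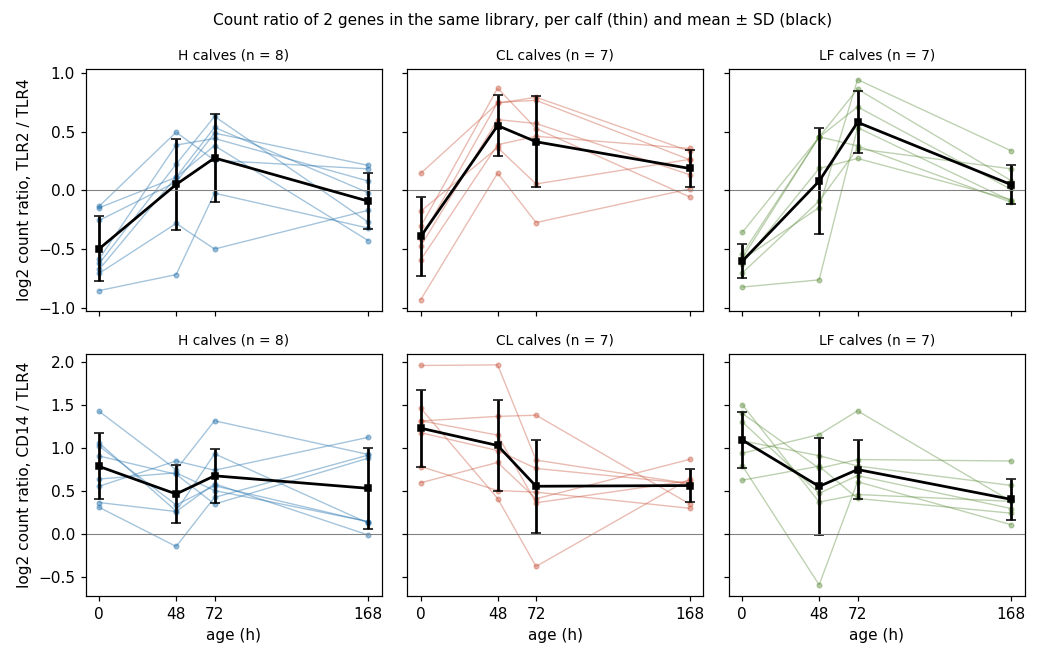
Log2 ratio of TLR2 to TLR4 counts (top) and of CD14 to TLR4 counts (bottom) against age in hours, with a thin line per calf and the mean ± SD in black (n = 8 H, 7 CL and 7 LF calves). The TLR2 to TLR4 ratio is higher at 48 h than at 0 h in all 22 calves. The 2 counts of a ratio are not corrected for gene length, so only changes in it can be read.

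Between the beef crossbreeds, no DEG was called by edgeR among the 3 genes at any age. TLR4 showed the widest gap, at 48 h, where the mean was 89.6 ± 19.0 CPM in CL and 224.2 ± 113.02 in LF calves (SD, n = 7 each), a log2 fold change of -1.33 ± 0.29 (adjusted p = 0.0835). At that age 6 of 7 LF calves stood above all CL calves, the exception being LF calf 5 at 80.2 CPM. TLR2 at 48 h was 133.2 ± 36.4 CPM in CL and 219.0 ± 57.6 in LF calves, with a log2 fold change of -0.72 ± 0.21 (adjusted p = 0.0982), and again 6 LF calves were above all CL calves. CD14 had a log2 fold change of -0.69 ± 0.31 (adjusted p = 0.201).

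The calls at 48 h depended on the tool, since edgeR called 0% of 12838 genes between CL and LF calves although 22.7% had an unadjusted p under 0.05, whereas DESeq2 called 558 genes, or 4.35%. DESeq2 called TLR4 (-1.34, adjusted p = 0.000854) and TLR2 (-0.73, adjusted p = 0.0215) but not CD14. Over all 8 alternative settings the adjusted p ran from 0.000659 to 0.127 for TLR4, which was a DEG in 3, and from 0.0215 to 0.140 for TLR2, which was a DEG in 2.

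At 0 h the log2 fold changes of CL versus LF calves were -0.33, -0.53 and -0.36 for TLR2, TLR4 and CD14, and at 72 h they were -0.41, -0.21 and -0.49, with adjusted p from 0.491 to 0.841. At 168 h they were 0.07, -0.07 and 0.06, the closest of the 4 ages. With edgeR 0% of 12744, 12681 and 12786 genes were DEG at these 3 ages, 10.0%, 4.44% and 1.90% had an unadjusted p under 0.05, and DESeq2 called 9, 2 and 0.

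H calves were compared with the mean of both beef groups, and at 168 h all 3 genes were DEG and present at higher levels in H calves, in a comparison where 8.99% of 13043 genes were DEG. At that age TLR4 ran from 101.03 to 252.4 CPM in H calves (median 165.3) and from 57.3 to 134.2 in the 14 beef calves (median 92.1). CD14 ran from 171.9 to 461.3 CPM in H calves (median 198.2) and from 74.5 to 231.8 in beef calves (median 128.8), and TLR2 from 114.4 to 223.3 (median 132.7) and from 57.6 to 153.9 (median 104.9). Each of the 8 H calves was above the beef median for each gene. The groups overlapped, with 10, 12 and 11 of the 14 beef calves below every H calf for TLR4, CD14 and TLR2.

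The log2 fold change of H versus beef calves at 168 h was 0.81 ± 0.17 for TLR4 (adjusted p = 0.00232), 0.85 ± 0.20 for CD14 (adjusted p = 0.00432) and 0.59 ± 0.17 for TLR2 (adjusted p = 0.0143). TLR4 and CD14 were DEG in all 8 alternative settings. Dropping the fold change threshold, which is among them, could not lose a call. Nor could leaving out libraries with over 50% of reads not counted on a gene, as none was at 168 h. TLR2 lay on the fold change threshold itself and was a DEG in 5 of 8, being lost in a fit of all 88 libraries (0.58), in that fit with the L number of the library label (0.49) and without libraries whose label ends in R (0.49). Without the 168 h libraries of H calves 1 and 3, TLR4 (0.73 ± 0.19, adjusted p = 0.0148) and CD14 (0.67 ± 0.19, adjusted p = 0.0211) were DEG and TLR2 was not (0.50 ± 0.18, adjusted p = 0.0600), beside 6.59% of the genes.

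At the 3 earlier ages none of the genes was a DEG between H and beef calves in the main fit. TLR4 had log2 fold changes of 0.43 ± 0.18, 0.51 ± 0.22 and 0.46 ± 0.19 at 0, 48 and 72 h (adjusted p = 0.0613, 0.0858 and 0.0949), with 7 of 8 H calves above the beef median each time. The beef groups lay apart at 48 h, when the TLR4 mean of H calves, 202.6 CPM, was above the 89.6 of CL and below the 224.2 of LF calves. The H means at 48 h lay between those of CL and LF calves for TLR2 (200.4 CPM) and CD14 (274.1 CPM) too. TLR2 had 0.43 ± 0.19 at 0 h (adjusted p = 0.0704), before any calf had taken colostrum, then 0.23 and 0.18. CD14 had 0.01 ± 0.27 at 0 h (adjusted p = 0.974), then 0.13 and 0.37. DEG made up 18% of 12995, 12.9% of 13060 and 7.71% of 12923 genes in these comparisons. Over the 8 alternative settings TLR4 at 0 h was a DEG in 1, with log2 fold changes from 0.40 to 0.65 (adjusted p = 0.0195 to 0.139). TLR4 was a DEG in 0 of 8 at 48 h and at 72 h, and TLR2 in 0 of 8 at 0 h (adjusted p = 0.0304 to 0.205).

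**Figure D4:**
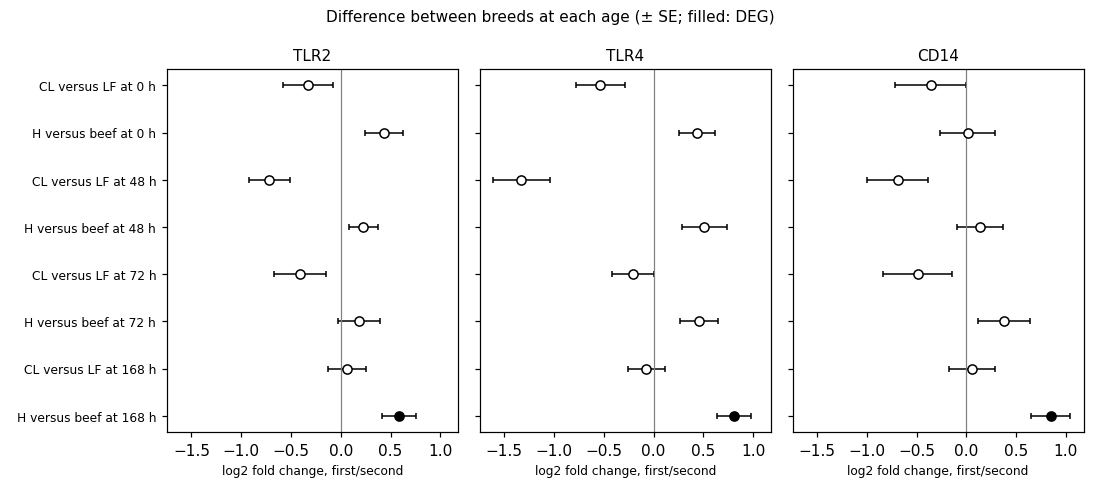
Log2 fold change between breeds (x axis, first over second named, ± SE from edgeR) for each gene (panels) at each age (rows), where beef is the mean of CL and LF and filled points are DEG. Only the 3 points for H versus beef calves at 168 h are filled, and the widest gap among the unfilled points is TLR4 in CL versus LF calves at 48 h.

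Whether a change with age differed between breeds was tested directly for the intervals 0 to 48 h and 72 to 168 h. None of the 12 tests gave a DEG, by edgeR or DESeq2, and 0 of 12 had an unadjusted p under 0.05 in edgeR. The largest difference was that of TLR4 between CL and LF calves from 0 to 48 h, at -0.80 ± 0.39 (adjusted p = 0.373). From 72 to 168 h, H minus beef gave 0.39, 0.34 and 0.46 for TLR2, TLR4 and CD14 (adjusted p = 0.552, 0.590 and 0.567), and 0.30, 0.26 and 0.28 without the 168 h libraries of H calves 1 and 3. edgeR called 0% of 13339 and 13494 genes for the first interval and of 13204 and 13356 for the second (CL minus LF, then H minus beef), unadjusted p were under 0.05 for 13.7%, 3.54%, 1.54% and 13.1%, and DESeq2 called 53, 6, 0 and 3.

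Across the 88 libraries the log2 CPM of TLR4 and CD14 had a Pearson r of 0.79, that of TLR2 and TLR4 0.71 and that of TLR2 and CD14 0.59. With the mean of each group of breed and age removed, the values were 0.71, 0.78 and 0.77. The libraries come from 22 calves sampled at 4 ages each, so these are descriptions without a test. CD14 ranked 34th among the other 12014 genes with a mean of at least 1 CPM for likeness to TLR4, and TLR4 ranked 43rd for CD14. TLR4 ranked 359th for TLR2 and TLR2 220th for TLR4, while CD14 ranked 886th for TLR2 and TLR2 637th for CD14. The genes most like TLR2 in their log2 CPM over the 88 libraries were ENSBTAG00000007399 (r = 0.93) and ENSBTAG00000005650 (r = 0.90). Those most like TLR4 were ENSBTAG00000020936 (r = 0.89) and ENSBTAG00000019933 (r = 0.85), and those most like CD14 were ENSBTAG00000019669 (r = 0.93) and ENSBTAG00000014665 (r = 0.92).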

How the data were processed

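The authors trimmed reads with cutadapt, checked them with FastQC, left out samples with few reads, aligned the rest to the cattle genome (build UMD3.1) with STAR and deposited unnormalized counts per Ensembl gene, unstranded and by strand. The 2 strands held 50.6% and 49.8% of the unstranded counts, so the library keeps no strand and unstranded counts were used. Reads that were unmapped, mapped to several places, outside genes or ambiguous (30.6 to 73.9% per library) are not in these counts. The counting error given above covers counting alone, whereas the SE and SD also reflect differences between calves.

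Breed, age and calf came from the labels. Each comparison was fitted over all genes with edgeR 4.0.16 (TMM, default low-count filter, robust quasi-likelihood test) on the groups compared. Standard errors are the log2 fold change over the square root of F. CPM were scaled over all 88 samples, log2 CPM used a prior count of 2 and ratios an added count of 0.5. No 2 libraries held identical counts (0 of 280 pairs within groups and 0 of 3548 others). The ear tag shows that the same animals were sampled at each age. Same-calf deviations from group means had mean correlations of 0.23 to 0.608 over 9 pairs of ages, against -0.101 to -0.0378 between calves. Nothing says which L numbers or R endings of library labels stand for a batch.

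Alternatives were DESeq2 1.42.0, RLE, no filter, no fold change threshold, all 88 samples in 1 fit without and with the L number, removal of libraries ending in R, the calf as a block and leaving out each calf. Removal of the 5 libraries with over 50% of reads not counted on a gene was added after seeing the data. So was removal of the 2 H libraries at 168 h with an RNA number outside the run of their calf. The 3 genes and all lists were chosen with earlier results of these data known. The rule for named genes took the 3 members and the 5 genes with the highest r to each, of which the first 2 are printed. Pathway and marker lists, hemoglobin removal and sequences were not used because no table at hand pairs these identifiers with symbols. The fits were tested on simulated counts.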

Additional observations from a re-analysis of the deposited data

Results flagged for a closer look

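Of the 36 groups of gene, breed and age, 8 held a calf that lay apart from the rest of its group by Dixon's test on CPM. The test flags about 1 in 20 groups when values are normal and groups independent. CPM were not log-transformed here and the genes were read from the same libraries, so that rate cannot be set against the 8. LF calf 6 at 0 h stood high for TLR2 (269.1 CPM) and TLR4 (404.9 CPM), and it also had the highest CD14 of its group. LF calf 4 at 72 h stood high for TLR4 (255.5 CPM) and CD14 (690 CPM). CL calf 2 stood high for CD14 at 0 h (851.2 CPM) and at 48 h (409.6 CPM). H calf 3 at 168 h (461.3 CPM) and LF calf 3 at 168 h (231.8 CPM) stood high for CD14, and the former is 1 of the 2 libraries with an RNA number outside the run of their calf.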

How the results depend on the processing

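Calls of TLR2 between ages rose from 1 to 4 with DESeq2, to 3 with the calf as a block, and to 2 in the fit of all 88 libraries, in that fit with the L number and without libraries ending in R, and ran from 1 to 2 with single calves left out. Its breed calls went from 1 to 2 with DESeq2 and to 0 with the L number, without R libraries, or without the 168 h libraries of H calves 1 and 3. TLR4 calls between ages went from 4 to 2 with the L number and from 2 to 5 over calves left out, and its breed calls from 1 to 2 with DESeq2 or all 88 libraries and to 3 with the L number. Passing ratio tests went from 9 to 0 without R libraries, where 4 to 7 calves remained and the changes were of like size. The block changed no call other than the 5 given above, and CD14 calls between ages, 4 in all, numbered 6 with DESeq2, 5 in the fit of all 88 libraries and 3 without R libraries, and 3 to 5 over calves left out. RLE changed 0 of 72 calls. The cause of these changes was not tested, other than that fewer libraries remain where some are left out. Small values changed sign in some settings. With the L number these were CD14 from 48 to 72 h in H (-0.0661) and CL (-0.0429), TLR2 in LF from 48 to 72 h (-0.0333), CL versus LF at 168 h for TLR2 (-0.12) and CD14 (-0.24), H minus beef from 0 to 48 h for TLR4 (-0.11) and CD14 (-0.0177), and CL minus LF from 72 to 168 h for TLR4 (-0.0474). CD14 in H versus beef calves at 0 h was -0.0054 without a filter and -0.058 without R libraries, where the CD14 to TLR4 ratio in CL from 72 to 168 h was -0.31. With single calves left out, the log2 fold change crossed 0 in 6 comparisons that were not DEG, running from -0.1895 to 0.002 for TLR4 in H from 48 to 72 h, -0.1934 to 0.0518 for TLR2 in H and -0.1988 to 0.0288 for TLR2 in CL from 0 to 168 h, -0.1269 to 0.2062 for CD14 in CL from 48 to 72 h, -0.1392 to 0.2954 for TLR4 in LF from 0 to 48 h and -0.0451 to 0.1674 for TLR2 in LF from 48 to 72 h. Removal of hemoglobin reads and the count of calls over pathway genes were not run.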
